A study of Rattus norvegicus with 8 samples.

Results

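The solute carriers described here are the 116 genes of the array whose single gene symbol begins with Slc and a digit. Slc2a1, Slc2a3, Slc18a1 and Slc18a2 were left out by the rule that chose the members, which used no measured difference between the groups. The 116 genes were among 4736 genes with a single symbol on the array, belonged to 37 numbered families and had 174 probe sets. Each gene was represented by its probe set with the highest mean signal over the 8 arrays. The arrays measured RNA of the PC12 line Htt14A2.5, 4 samples titled +PA (induced) and 4 titled -PA (uninduced). PC12 cells derive from a tumour of the rat adrenal medulla. The labels say that the cells stably carry a mutant, truncated first exon of human huntingtin, the protein of Huntington disease, under inducible control, and that ponasterone (PA), a steroid inducer, was given for 48 h. That description stands on all 8 samples, so the titles alone set the groups. Uninduced cells carry the transgene too. The series title asks what differs between induced and uninduced cells. All samples come from 1 line, and no sample of cells without the transgene given ponasterone was analysed here, so the inducer and the transgene cannot be told apart. Nothing in the labels tells whether replicates came from different cultures, so p-values measure only the spread between these samples.

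Solute carriers are membrane proteins that move ions, nutrients, metabolites and neurotransmitters across the plasma membrane and the membranes of organelles. They either let a solute run down its own gradient or couple it to the gradient of sodium, protons or chloride, or to the exchange of another solute, and unlike pumps they do not split ATP. Catecholamine-secreting cells such as PC12 are known for plasma membrane carriers that retrieve transmitter and for vesicular carriers that load it into granules.

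Values are scaled array signals, linear and without unit, and the probes of different genes differ in brightness, so a signal is compared between arrays and not between genes. Differences are induced minus uninduced on the scale of log2(signal + 7) with their SE, and folds come from them. They were tested with limma across 6129 probe sets with a mean signal of at least 36.01. A member is called where the Benjamini-Hochberg adjusted p over all of them lay under 0.05, and rose or fell is written only of called genes. Background was taken as the 95th percentile of 38 negative control probe sets, which lay between 102 and 183 over the 8 arrays. The arrays had median signals between 97.5 and 134.9.

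Of 8 measured markers of chromaffin and PC12 cells, the granule proteins Chgb and Scg2 and the growth cone protein Gap43 lay above background on all 8 arrays. The catecholamine enzymes Dbh and Ddc lay above it on 0 arrays and Th on 1, so these defining enzymes were at or near background. Of the other measured markers, Syt1 lay above background on 0 arrays and Slc18a1 on 7. The summed signal of the 8 markers ran from 10995 to 15853 in uninduced and from 14148 to 15183 in induced samples. Chgb alone had means of 10991 and 12195, so the sum mostly follows Chgb. Of 5 fibroblast markers, 2 (Col1a1 and Col3a1) lay above background on all 8 arrays, with sums of 1330.4 to 1725 and 1481 to 1794. The measured markers of adrenal cortex (3), leukocytes (3), and glia and Schwann cells (2) included 0 above background on all 8 arrays. The 3' to 5' log2 ratio of Gapdh, a sign of RNA quality, ranged from 0.20 to 0.50 in uninduced and from 0.39 to 0.56 in induced samples. That of beta-actin ranged from 0.08 to 0.57 and from -0.67 to 0.57, and that of hexokinase from 0.87 to 1.37 and from 0.50 to 1.14. The part of these differences in the results was not tested.

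Of the 116 solute carriers, 50 had a signal above background on all 8 arrays, 28 on 1 to 7 arrays and 38 on none. The filter on low signals kept 90, of which 12 were above background on 0 arrays. The 26 below the filter had mean signals between 3.87 and 30.96 and lay under background on every array.

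**Figure D1:**
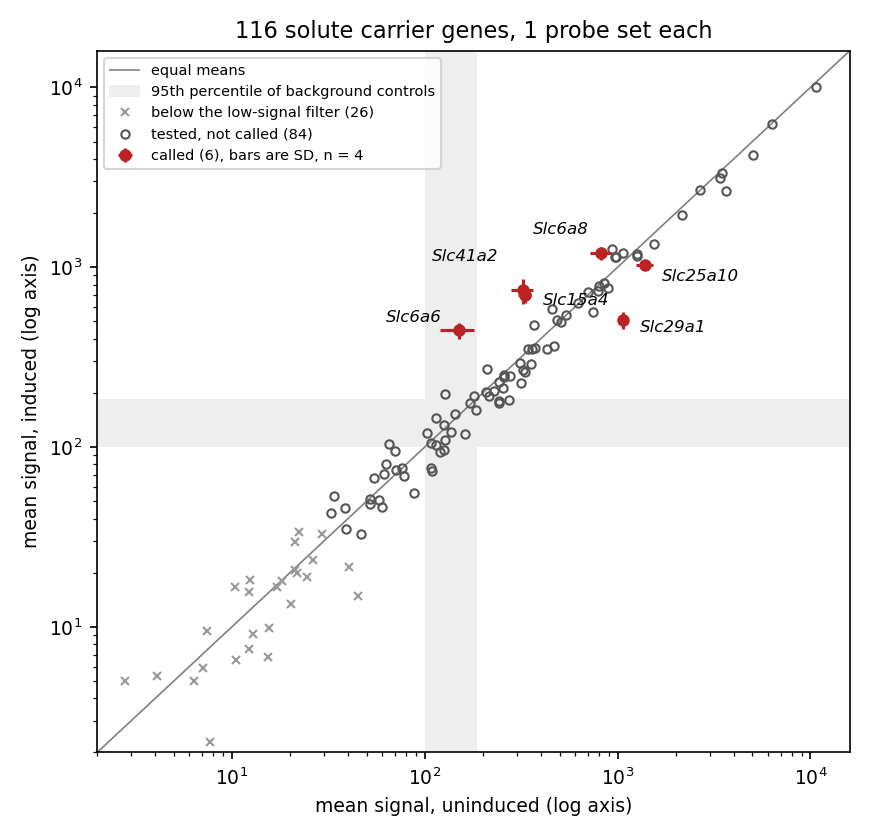
Mean signal of each of the 116 solute carriers in uninduced (horizontal, log axis) and induced samples (vertical, log axis), with SD bars (n = 4) for the 6 called members and grey bands for the range of the background level over the 8 arrays. Most points lie near the line of equal means. Slc6a6, Slc41a2, Slc15a4 and Slc6a8 lie above it and Slc29a1 and Slc25a10 below it.

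Few solute carriers differed between induced and uninduced cells. The taurine transporter Slc6a6, the magnesium transporter Slc41a2, the lysosomal peptide and histidine transporter Slc15a4 and the creatine transporter Slc6a8 rose. The equilibrative nucleoside transporter Slc29a1 and the mitochondrial dicarboxylate carrier Slc25a10 fell. These 6 were 6.67% of the 90 members tested, against 7.06% of all 6129 probe sets (433 called), and against 7.20% of 3623 genes with 1 probe set each. The 4 that rose stood beside 4.10% of all probe sets called higher, and the 2 that fell beside 2.97% called lower. Among the 50 members above background on all 8 arrays, 5 were called, beside 10.6% of the 3393 probe sets with such signals. Each of these shares of the members was near that of the whole array.

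Counts by other measures stood beside those of the whole array in the same way. The 4 arrays of one group lay wholly above the 4 of the other in 10 of 90 members (6 higher and 4 lower, 11.1%), against 13.6% of all probe sets. At an unadjusted p under 0.05 there were 12 (6 higher and 6 lower, 13.3%), against 18.0%. A log2 difference beyond 1 in size was seen in 4 members, Slc6a6, Slc41a2, Slc15a4 and Slc29a1, against 3.23% of all probe sets. The median difference was -0.09 over the members and -0.05 over all probe sets, and the median size was 0.22 and 0.21. Differences were negative in 57 of 90 members (63.3%) and in 56.6% of all probe sets. Centring each array on its median left 230 calls in all, 72.6% of them higher against 58.0%, and 4 among the members (3 higher and 1 lower), without Slc6a8 and Slc25a10.

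The called members are shown by the rat genomic sequence ahead of their genes, since 4 of them rose together and the letters show how different these regions are. Sequences come from the RefSeq promoter windows of assembly GRCr8, which run from 250 bases before to 50 after an annotated start. Only bases that lie ahead of the annotated gene are printed, 5′ to 3′ on the plus strand, on which all of these genes lie. Capitals mark matches, on either strand, to any of the 10 motifs named after them.

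Slc6a6 (taurine transporter, gene ID 29464, chr4:125752252-125752339, 88 bases): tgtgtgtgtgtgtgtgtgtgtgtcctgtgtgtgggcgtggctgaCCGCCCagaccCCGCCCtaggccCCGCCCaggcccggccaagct

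Slc41a2 (magnesium transporter, gene ID 362861, chr7:22271063-22271297, 235 bases): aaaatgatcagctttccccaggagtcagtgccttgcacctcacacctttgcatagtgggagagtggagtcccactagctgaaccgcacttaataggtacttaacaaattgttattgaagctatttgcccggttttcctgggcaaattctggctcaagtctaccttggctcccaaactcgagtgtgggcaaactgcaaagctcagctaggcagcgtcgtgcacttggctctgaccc

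Slc6a8 (creatine transporter, gene ID 50690, chrX:156535767-156536001, 235 bases): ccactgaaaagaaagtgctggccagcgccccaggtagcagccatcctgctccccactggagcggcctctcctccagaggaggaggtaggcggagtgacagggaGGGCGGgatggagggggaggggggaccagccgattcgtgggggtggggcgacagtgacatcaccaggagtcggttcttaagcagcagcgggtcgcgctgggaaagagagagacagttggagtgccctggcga

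Slc25a10 (mitochondrial dicarboxylate carrier, gene ID 170943, chr10:106264146-106264380, 235 bases): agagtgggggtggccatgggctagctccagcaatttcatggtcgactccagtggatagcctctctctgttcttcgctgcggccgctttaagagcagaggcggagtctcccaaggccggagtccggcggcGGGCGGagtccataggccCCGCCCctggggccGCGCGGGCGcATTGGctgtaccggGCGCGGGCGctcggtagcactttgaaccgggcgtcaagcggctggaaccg

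Slc29a1 (nucleoside transporter, gene ID 63997, chr9:22896849-22897083, 235 bases): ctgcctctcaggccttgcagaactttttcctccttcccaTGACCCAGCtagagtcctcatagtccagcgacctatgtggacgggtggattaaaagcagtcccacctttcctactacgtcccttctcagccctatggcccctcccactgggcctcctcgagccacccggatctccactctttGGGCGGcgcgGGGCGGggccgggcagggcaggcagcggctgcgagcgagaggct

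The start of Slc41a2 lies 15 bases inside the gene, and the 15 bases next to the starts of Slc6a8, Slc25a10 and Slc29a1 were left out to give stretches of the same length. The stretch of Slc6a6 was shorter because its annotated start lies 162 bases inside the gene. Slc41a2 has 2 annotated starts, and the window of the first is shown. The window of Slc15a4 (gene ID 246280, chromosome 12) lies inside the gene and is not printed. The GC box (GGGCGG) was found 3 times in the 88 bases of Slc6a6. Of all 33469 promoter windows, 9.12% held it in their first 88 bases, the part farthest from the annotated start. The stretch of Slc6a6 is also the first of its window but adjoins the annotated gene, so that share is not matched for distance to the gene. In the stretches of 235 bases the GC box was found in Slc6a8 (1 match), Slc25a10 (2) and Slc29a1 (2) and not in Slc41a2. Of all windows, 29% held it in their first 235 bases. The Egr motif (GCGNGGGCG) was found 2 times in Slc25a10 (3.99% of windows). The CCAAT box (CCAAT) was found 1 time in Slc25a10 (32.7%), and the antioxidant response element (TGACNNNGC) 1 time in Slc29a1 (9.4%). The AP-1 motif (TGANTCA, 5.99% of windows at 235 bases), the cyclic AMP response element (TGACGTCA, 1.44%), the amino acid response element (TGATGNAAN, 3.2%), the E-box (CACGTG, 5.21%), the tonicity element core (TGGAAA, 18.8%) and the TATA box (TATAAA, 12.5%) had no match in the 5 stretches. No matches overlapped. The GC content was 69.3% in Slc6a6. The median over the first 88 bases of all windows was 50%, likewise not matched for distance to the gene. The GC content was 50.2% in Slc41a2, 65.1% in Slc6a8, 67.7% in Slc25a10 and 63.4% in Slc29a1, where the median over the first 235 bases was 51.1%. These are matches of letters only.

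Slc6a6 brings taurine, an osmolyte and antioxidant amino acid, into the cell with sodium and chloride. Its signals were 189, 139, 156 and 116 in uninduced replicates 1 to 4 and 417, 409, 447 and 511 in induced replicates 1 to 4. Every induced sample lay above every uninduced one, and the 2 groups were far apart. The mean rose from 150.1 ± 30.7 to 446 ± 46.3 (SD, n = 4 each), a log2 difference of 1.54 ± 0.18 (95% interval 1.16 to 1.93; limma adjusted p = 0.000197) or 2.92-fold. The uninduced signals were close to background, which 3 of those 4 arrays exceeded, so the size of the fold depends on the background. In bulk RNA, a change in the number of cells that express a gene and a change in RNA per cell cannot be told apart.

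Slc6a8 takes up creatine, which buffers ATP in cells with a high and changing energy demand. Uninduced signals were 734, 961, 816 and 769 and induced signals 1287, 1251, 1177 and 1073. The groups did not overlap, but the gap between the highest uninduced and the lowest induced sample was only about as large as the SD of either group. The means were 819.7 ± 99.99 and 1197 ± 94.7, a rise of 0.55 ± 0.11 on the log2 scale (95% interval 0.30 to 0.80; limma adjusted p = 0.0118) or 1.46-fold. It was no longer called with median centring (adjusted p = 0.128) or without the intensity trend of the variance (0.0511).

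Slc41a2 carries magnesium and related divalent metals. Its 4 uninduced signals were 278, 347, 299 and 371, and its induced signals were 705, 639, 719 and 908. All 4 induced samples were far above all uninduced samples, with induced replicate 4 the highest. The mean rose from 324 ± 42.7 to 743 ± 116, a log2 difference of 1.18 ± 0.15 (95% interval 0.86 to 1.50; limma adjusted p = 0.000389) or 2.26-fold.

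Slc15a4 exports histidine and short peptides from lysosomes and endosomes together with protons. Signals were 357, 341, 298 and 320.4 in uninduced samples and 724, 707, 763 and 607 in induced samples. The groups were well apart, and the induced samples were the more spread of the 2. The mean rose from 329 ± 25.5 to 699.9 ± 66.5, a log2 difference of 1.07 ± 0.13 (95% interval 0.80 to 1.34; limma adjusted p = 0.000219) or 2.1-fold. All 8 arrays had signals of Slc15a4, Slc41a2 and Slc6a8 above background.

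Slc29a1 lets adenosine and other nucleosides pass the plasma membrane in either direction and is a main route of adenosine uptake. Its uninduced signals were 1027, 1144, 1089 and 1001 and its induced signals 516, 519, 569 and 432. Every induced sample had less signal than any uninduced sample, and both groups were tight. The mean fell from 1065 ± 64.4 to 509 ± 56.5, a log2 difference of -1.06 ± 0.12 (95% interval -1.31 to -0.81; limma adjusted p = 0.000122). The fall was 2.08-fold, and no other member had a lower p. The related carrier Slc29a2 was at 454, 448, 361 and 467 in uninduced and 292, 285, 381 and 443 in induced samples, with overlapping groups and a difference of -0.32 ± 0.17 (limma adjusted p = 0.375). Its 95% interval ran from -0.69 to 0.06. Whether the 2 carriers differed in their response was not tested.

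Slc25a10 exchanges malate and succinate for phosphate across the inner mitochondrial membrane. Uninduced signals were 1546, 1261, 1273 and 1455 and induced signals 1002, 1122, 986 and 1019. The induced samples lay together below the uninduced ones, which were more spread. The mean fell from 1384 ± 140.0 to 1032 ± 61.5, a log2 difference of -0.42 ± 0.10 (95% interval -0.64 to -0.19; limma adjusted p = 0.0291) or 1.33-fold. Its other probe sets differed by -0.23 (adjusted p = 0.295, groups not overlapping) and -0.17 (adjusted p = 0.787, groups overlapping), and neither was called. This call was the least firm: leaving out uninduced replicate 1 gave an adjusted p of 0.0887, induced replicate 1 0.0768, induced replicate 3 0.0740, uninduced replicate 4 0.0632 and induced replicate 4 0.0538.

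**Figure D2:**
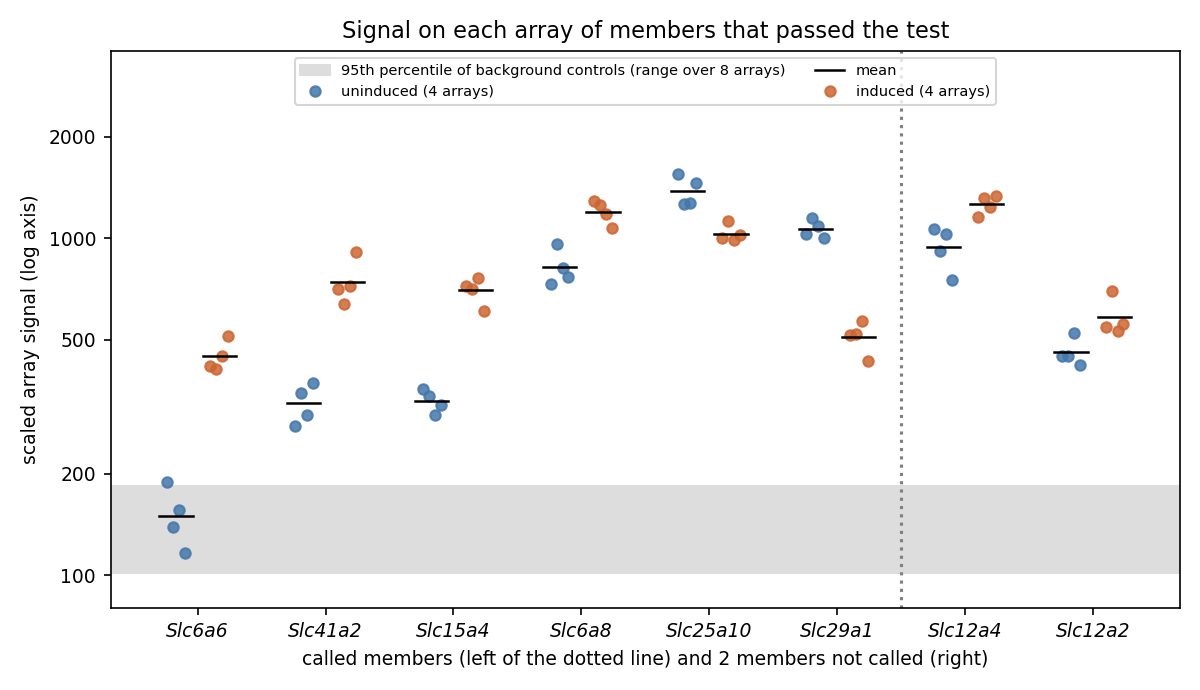
Signal on each of the 8 arrays (log axis) for the 6 called solute carriers and, right of the dotted line, the uncalled Slc12a4 and Slc12a2, with 4 points and a mean bar per group and a grey band for the range of the background level. The groups are apart in all 8 genes, and the uninduced points of Slc6a6 lie in or just above the band.

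Just outside the threshold lay Slc12a4, a potassium-chloride cotransporter that lowers cell volume and chloride. Its uninduced signals were 1065, 913, 1027 and 753 and its induced signals 1159, 1312, 1241 and 1334. The groups did not overlap, and uninduced replicate 4 was the lowest. The means were 939 ± 140.1 and 1261 ± 78.9, a difference of 0.43 ± 0.12 (limma adjusted p = 0.0549). It was called in 4 of 19 alternatives, among them leaving out uninduced replicate 1 (adjusted p = 0.0458). Its other probe set differed by 0.30 (adjusted p = 0.416).

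Of the 6 called members, Slc6a6, Slc41a2, Slc15a4 and Slc29a1 were called in all 19 alternative analyses. Slc6a8 was called in 17 of them, including the 8 that each left out 1 array, and Slc25a10 in 9, with 3 of those 8. No called member changed direction. Of the 34 other named members with a test, 32 were called in no alternative.

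**Figure D3:**
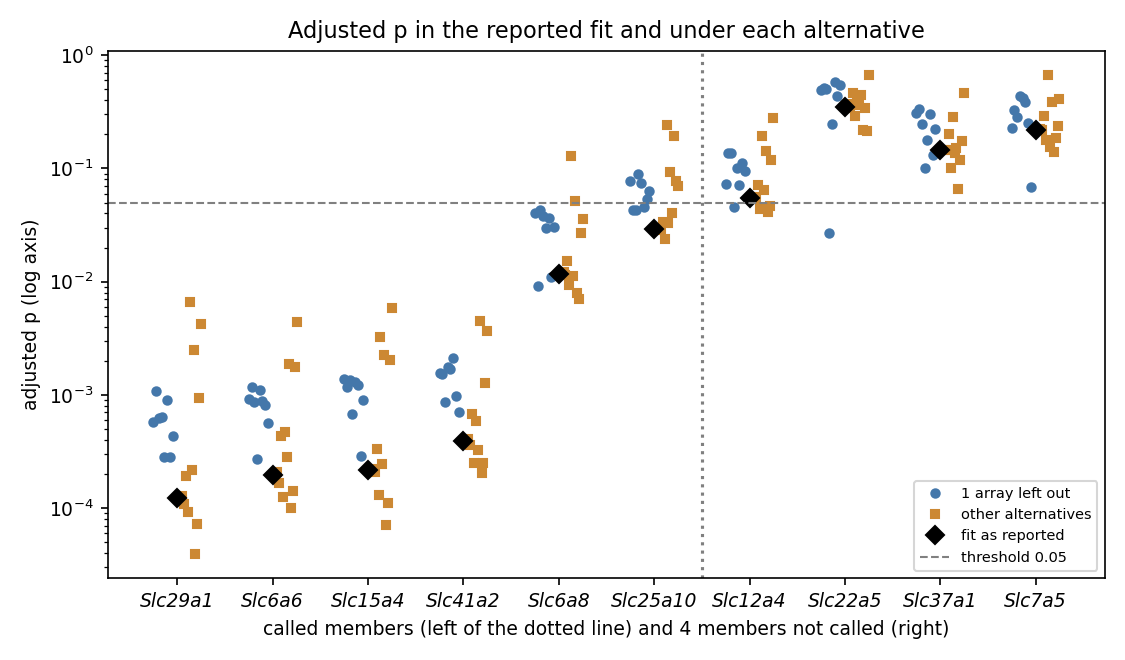
Adjusted p (log axis) of the 6 called members and, right of the dotted line, 4 uncalled members, in the reported fit (diamonds), with 1 array left out (circles) and under the other alternatives (squares). Slc29a1, Slc6a6, Slc15a4 and Slc41a2 stay below the threshold line of 0.05 throughout, while points of Slc25a10, Slc6a8, Slc12a4 and Slc22a5 lie on both sides of it.

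The Slc6 family, grouped here as neurotransmitter uptake although it also carries other solutes, drives its solutes inward with sodium and chloride. It had 14 members, of which 11 were tested, 2 rose (Slc6a6 for taurine and Slc6a8 for creatine) and 0 fell. None of the tested carriers of noradrenaline, dopamine, serotonin or glycine was called. The median difference was -0.11, and 2 of 11 stands beside 7.06% of all probe sets. The glycine transporter Slc6a9 was at 618, 908, 695 and 768 in uninduced and 576, 410.0, 667 and 603 in induced samples, with uninduced replicate 1 inside the range of the induced samples (-0.41 ± 0.17, limma adjusted p = 0.215). The serotonin transporter Slc6a4 was at 529.5, 476, 475 and 558 in uninduced and 307, 349, 570.4 and 748 in induced samples. Induced replicates 1 and 2 lay below and 3 and 4 above all uninduced samples, for a difference of -0.13 ± 0.24 (adjusted p = 0.857). The noradrenaline transporter Slc6a2, a carrier of catecholamine cells, was above background on 3 arrays and differed by 0.04 ± 0.27 (adjusted p = 0.969). The dopamine transporter Slc6a3 was above background on 1 array and differed by 0.61 ± 0.56 (adjusted p = 0.652).

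The families grouped here as vesicular carriers include those that fill synaptic vesicles. Of their 4 members 2 were tested, with 0 called and a median of -0.04. The vesicular acetylcholine transporter Slc18a3 was at 552, 527, 339.9 and 448 in uninduced and 286, 326, 386 and 462 in induced samples, with overlapping groups (-0.35 ± 0.19, limma adjusted p = 0.386). The vesicular glutamate transporter Slc17a7 was below the filter, with means of 21.6 ± 2.36 and 19.8 ± 5.47.

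Amino acid uptake by other families covered 10 members, with 8 tested, 0 called and a median of -0.16. Slc7a5, which brings in large neutral amino acids as the light chain of a complex, was at 5762, 4913, 5216 and 4256 in uninduced and 4513, 4327, 3669 and 4272 in induced samples. Only uninduced replicate 4 lay within the range of the induced samples (-0.26 ± 0.11, limma adjusted p = 0.22). Its heavy chain Slc3a2 was at 4101, 3267, 2667 and 4547 in uninduced and 2444, 1133, 2701 and 4303 in induced samples. The induced samples spread widely, from the lowest to nearly the highest of the 8 arrays (-0.58 ± 0.32, adjusted p = 0.384). A second probe set of Slc3a2 differed by -0.30 (adjusted p = 0.433).

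The cationic amino acid transporter Slc7a1 differed by -0.10 ± 0.18 (limma adjusted p = 0.855), with overlapping groups. Of the glutamate transporters, the neuronal Slc1a1 was at 93.2, 78.9, 62.6 and 116 in uninduced and 44.5, 42.5, 38.9 and 95.1 in induced samples, under background throughout (-0.66 ± 0.35, adjusted p = 0.366). The glial Slc1a2 and Slc1a3 differed by -0.23 ± 0.39 (adjusted p = 0.847) and 0.11 ± 0.64 (adjusted p = 0.966), and Slc1a3 was above background on 0 arrays.

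Of 10 transporters known to be switched on when cells lack amino acids, 5 were on the array, all members and all tested. Of these, 0 were called (2 at an unadjusted limma p under 0.05). Over all probe sets these shares were 7.06% and 18.0%, and 5 members are too few to set against them. Their median was -0.26, with 4 of 5 differences negative, beside 56.6% of all probe sets. The other probe sets of one of the 4, Slc7a1, differed by 0.09 and 0.28, both uncalled. They were Slc6a9, Slc7a5, Slc3a2, Slc7a1 and Slc7a3, and Slc7a3, a cationic amino acid transporter with the one positive difference (0.19 ± 0.60, limma adjusted p = 0.928), was above background on 0 arrays.

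Members of the Slc25 family, grouped here as mitochondrial carriers, mostly exchange metabolites across the inner membrane of mitochondria. All 12 were tested, 10 were above background on all 8 arrays, 1 fell (Slc25a10) and 0 rose, with a median of -0.05. That 1 call of 12 is near the 7.06% called over all probe sets. The phosphate carrier Slc25a3 and the adenine nucleotide carriers Slc25a4 and Slc25a5 supply oxidative phosphorylation. Slc25a4 had means of 10636 ± 1047 and 10019 ± 636 and differed by -0.08 ± 0.09 (limma adjusted p = 0.73, 95% interval -0.28 to 0.12). Slc25a5 differed by -0.13 ± 0.12 (adjusted p = 0.658) and Slc25a3 by -0.02 ± 0.09 (adjusted p = 0.958, 95% interval -0.22 to 0.18). Slc25a30, a carrier related to the uncoupling proteins, was at 168, 260.0, 193 and 219.9 in uninduced and 281, 237, 285 and 286 in induced samples (0.38 ± 0.18, adjusted p = 0.292). Induced replicate 2 alone lay inside the uninduced range.

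**Figure D4:**
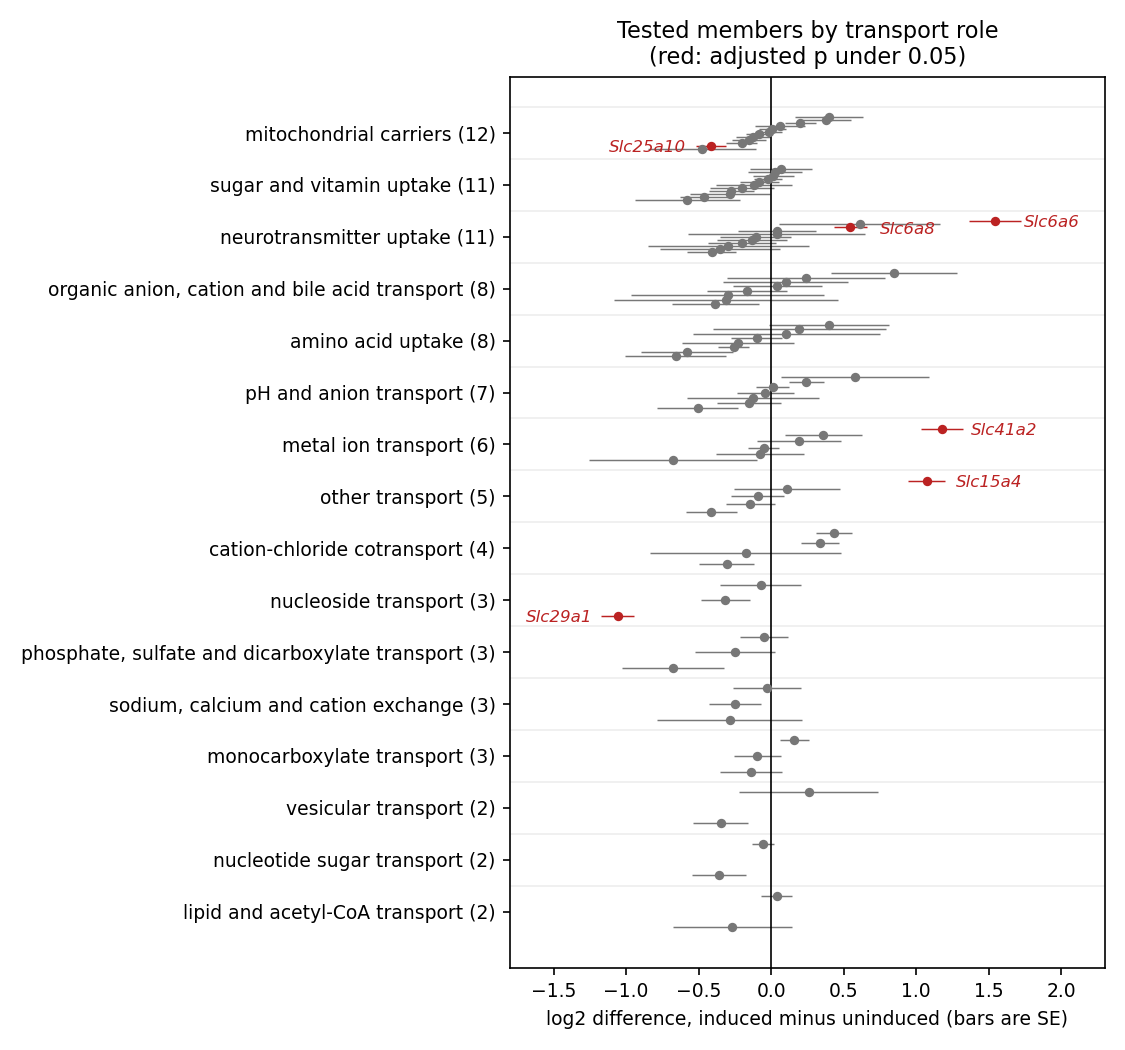
Induced minus uninduced log2 difference of each of the 90 tested members, with SE bars, in 16 transport roles (tested members in brackets). The 6 called members are red and named, and most roles have differences on both sides of 0. Nucleoside, nucleotide sugar, phosphate and calcium carriers, with 2 or 3 tested members each, lie on the negative side.

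Nucleoside transport had 4 members, 3 tested, 1 of them called (Slc29a1, lower), and its 3 differences were all negative. Over all probe sets 7.06% were called and 56.6% negative, and 3 members are too few to set against these shares. The Slc35 family, grouped here as nucleotide sugar transport by its number and not by the solute of each member, had 3 members, 2 tested and 0 called. Slc35b1, of a family of carriers of the endoplasmic reticulum and Golgi, was at 3487 ± 62.8 in uninduced and 3358 ± 135 in induced samples and differed by -0.05 ± 0.08 (limma adjusted p = 0.798, 95% interval -0.22 to 0.11).

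Cation-chloride cotransporters set cell chloride and volume. Of 6 members 4 were tested, 0 were called and the median was 0.08. Slc12a2, which brings sodium, potassium and chloride into the cell, was at 446, 448, 523 and 419 in uninduced and 547, 695, 530.4 and 557 in induced samples. The groups did not overlap by a small margin, and induced replicate 2 stood above the rest (0.33 ± 0.13, limma adjusted p = 0.191). Other Slc12a2 probe sets differed by 0.32 and 0.07, both uncalled. Slc12a5, the potassium-chloride cotransporter of mature neurons, was below the filter, with signals of 35.6, 81.7, 10.4 and 53.3 in uninduced and 10.3, 12.6, 20.3 and 16.3 in induced samples, all under background.

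Metal ion carriers had 7 members, 6 tested, 1 rose (Slc41a2) and the median was 0.07. Over all probe sets 7.06% were called, and 6 members are too few to set against that share. The zinc exporters Slc30a4 and Slc30a1 differed by 0.36 ± 0.27 (limma adjusted p = 0.549) and -0.68 ± 0.58 (adjusted p = 0.623), and Slc30a1 was above background on 0 arrays. Sodium and calcium exchangers had 4 members, 3 tested and 0 called, all 3 with negative differences. The exchanger Slc8a1, which removes calcium after a stimulus, was at 893, 798, 959.7 and 915 in uninduced and 576, 591, 1046 and 871 in induced samples. Induced replicates 1 and 2 were low, and replicates 3 and 4 within or above the uninduced range (-0.25 ± 0.18, adjusted p = 0.533). Other Slc8a1 probe sets differed by -0.40 (adjusted p = 0.28, groups not overlapping), -0.18, -0.27 and -0.81, all uncalled. Of these only the first was above background on all 8 arrays. Slc8a3 differed by -0.29 ± 0.50 (adjusted p = 0.852) with 0 arrays above background.

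Carriers that set pH or move other anions had 10 members, 7 tested and 0 called, with a median of -0.04. The anion exchanger Slc4a2 was at 965 ± 124 in uninduced and 1139 ± 99.68 in induced samples (0.24 ± 0.12, limma adjusted p = 0.32). Its other probe set, above background on all 8 arrays, differed by -0.06 (adjusted p = 0.84). The sulfate transporter Slc26a2 differed by -0.51 ± 0.28 (adjusted p = 0.39) at signals under background on every array. Phosphate, sulfate and dicarboxylate carriers had 5 members, 3 tested and 0 called. The plasma membrane dicarboxylate carrier Slc13a2 was at 239.8, 365, 188 and 303 in uninduced and 166, 80.5, 328 and 159.8 in induced samples (-0.68 ± 0.35, adjusted p = 0.352), with both groups widely spread, and the phosphate transporter Slc34a1 differed by -0.25 ± 0.28 (adjusted p = 0.736).

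Sugar and vitamin carriers had 13 members, 11 tested, 0 called, and 8 of 11 negative differences with a median of -0.12. Slc37a1, an exchanger of sugar phosphate and phosphate in the endoplasmic reticulum, was at 257, 349.8, 334 and 326 in uninduced and 185, 227, 249 and 250.2 in induced samples. The groups did not overlap, with uninduced replicate 1 close to the highest induced samples (-0.46 ± 0.17, limma adjusted p = 0.147). Its relative Slc37a4, which feeds glucose 6-phosphate into the endoplasmic reticulum, differed by -0.27 ± 0.16 (adjusted p = 0.409).

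Monocarboxylate carriers, which pass lactate, pyruvate and ketone bodies, had 6 members, 3 tested and 0 called. Slc16a1 was at 988, 1019, 1049 and 1215 in uninduced and 1179, 1114, 1289 and 1187 in induced samples, with overlapping groups (0.16 ± 0.10, limma adjusted p = 0.463), and Slc16a6 differed by -0.14 ± 0.21 (adjusted p = 0.827). Carriers of organic ions and bile acids, best known from liver and kidney, had 10 members, 8 tested and 0 called, and 0 of the 10 were above background on all 8 arrays. The carnitine transporter Slc22a5 was at 294, 87.9, 64.2 and 61.6 in uninduced and 229, 232, 113 and 211 in induced samples. Uninduced replicate 1 was the highest of all 8 samples and the other uninduced samples were below every induced one (0.85 ± 0.44, adjusted p = 0.348). Without that sample the difference was 1.34 and was called (adjusted p = 0.0269). The uninduced samples then left were all under background, so that call gives no size. The organic anion transporter Slc22a7 differed by -0.38 ± 0.30 (adjusted p = 0.572).

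Lipid and acetyl-CoA transport had 2 members, both tested and 0 called. The remaining carriers, of urea, peptides and choline-like solutes, had 6 members, 5 tested and 1 called, Slc15a4. Beside 7.06% of all probe sets called, 5 members are again too few for a comparison. Where 0 members of a role were called by limma, an unadjusted p under 0.05 was reached by 2 of 4 tested cation-chloride cotransporters. It was also reached by 1 of 8 tested carriers of amino acid uptake, 1 of 11 of sugar and vitamin uptake and 0 of the others. Over all probe sets 18.0% reached it, and roles this small cannot be set against that share. Slc44a4, of the choline transporter-like family, was at 214, 279.8, 237 and 239 in uninduced and 152, 171, 189 and 213 in induced samples. The groups were apart by less than 1 signal unit (-0.41 ± 0.18, limma adjusted p = 0.242).

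The 50 tested members outside the rule for named genes, Slc7a3 among them, had differences between -0.58 and 0.58, none was called by limma (lowest adjusted p = 0.347), and 48 of them were within 0.5 of 0 on the log2 scale. The 26 members below the filter were Slc10a1, Slc12a1, Slc12a5, Slc13a1, Slc13a3, Slc15a2, Slc16a12, Slc16a7, Slc16a8, Slc17a1, Slc17a7, Slc1a6, Slc22a3, Slc24a2, Slc28a2, Slc2a2, Slc35f6, Slc40a1, Slc4a4, Slc5a2, Slc6a13, Slc6a15, Slc6a18, Slc7a2, Slc9a3 and Slc9a4. They include carriers known from kidney, liver, intestine and brain, such as the iron exporter Slc40a1 and the glucose transporter Slc2a2.

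A gene's other probe sets give a second look at the same transcript. The members had 58 of them, for 40 genes, and 37 were tested. By the rule they have lower mean signals than the representatives, and of the called members only Slc25a10 had any. The shares of all probe sets are therefore not matched to them. None was called (limma), against 7.06% of all probe sets, and 0 had an unadjusted p under 0.05, against 18.0%. Of the 37, 27 had the sign of the representative probe set and 10 the opposite one. Their differences ran from -0.81 to 1.00, and the groups did not overlap in 2, against 13.6% of all probe sets. Slc6a6, Slc41a2, Slc15a4, Slc6a8 and Slc29a1 had 1 probe set each on the array, so their changes had no second probe set.

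Genes of neighbouring transport systems were set beside the members. Solute carriers that go by other symbols had 17 genes on the array, 13 tested, 1 lower and 0 higher, with a median of -0.11. The 1 call of 13 stands beside 7.06% of all probe sets. Mfsd10, a protein of the major facilitator fold, fell from a mean of 1017 ± 40.1 to 726 ± 38.3 with SDs over 4 samples (-0.48 ± 0.10, limma adjusted p = 0.00953). It was not called with median centring (adjusted p = 0.144) or without replicate 2 of both groups. The mitochondrial serine carriers Sfxn3 and Sfxn1 differed by 0.50 ± 0.14 (adjusted p = 0.0607) and -0.37 ± 0.13 (adjusted p = 0.12).

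Pumps that split ATP build the gradients that solute carriers use. Of 27 on the array 22 were tested, and 4 were called (18.2%), beside 7.06% of all probe sets. Of probe sets above background on all 8 arrays, 10.6% were called. Of the 4, 3 were higher and 1 lower, and the median of the 22 was 0.12. One of the 3, Fxyd2, was near background and passed the filter only through the induced samples. Its call should not be counted toward the 18.2%. The vacuolar proton pump acidifies lysosomes and secretory granules. Its subunit Atp6v1b2 fell from 9431 ± 1088 to 5327 ± 279.8 (-0.82 ± 0.09, limma adjusted p = 0.000197). Its subunits Atp6v1f and Atp6v0a1 rose, by 0.43 ± 0.08 (adjusted p = 0.00396) and 0.56 ± 0.13 (adjusted p = 0.0157). A second Atp6v0a1 probe set differed by 0.55 (adjusted p = 0.0941). Median centring ended the call of Atp6v1f (adjusted p = 0.10), and that of Atp6v0a1 was lost without replicate 2 of both groups (0.0983) and without the intensity trend. Fxyd2, a regulator of the sodium pump, had means of 24.5 ± 26.2 in uninduced and 112 ± 5.2 in induced samples and lay above background on 1 array. Its uninduced mean was under the filter, which it passed only through the induced samples, so its call (adjusted p = 0.0137) gives no size, and it was not called without replicate 2 of both groups (0.104).

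Partners and regulators of solute carriers had 21 genes on the array, 15 tested, 1 higher and 0 lower, with a median of 0.14. The 1 call of 15 stands beside 7.06% of all probe sets. Ywhag, a 14-3-3 protein that binds phosphorylated proteins, rose from 1721 ± 81.2 to 2630.1 ± 346 (0.60 ± 0.11, limma adjusted p = 0.0043). Emb, a chaperone of monocarboxylate carriers, differed by -0.36 ± 0.10 (adjusted p = 0.0546). Txnip, which promotes the internalisation of glucose transporters, differed by -0.46 ± 0.16 (adjusted p = 0.119), and a second Txnip probe set fell by 0.94 (adjusted p = 0.00348).

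ABC transporters, which expel solutes at the cost of ATP, had 15 genes on the array, 9 tested and 0 called (0 at an unadjusted p under 0.05), with a median of -0.13. The lowest p values were those of Abcc6 (-0.65 ± 0.34, limma adjusted p = 0.365), Abcc9 (-0.61 ± 0.42, adjusted p = 0.512) and Tap1 (-0.13 ± 0.13, adjusted p = 0.688). Aquaporins, which are water channels, had 10 genes, 8 tested and 0 called (0 at an unadjusted p under 0.05), with a median of -0.10. Aqp8, Mip and Aqp9 differed by 0.51 ± 0.51 (limma adjusted p = 0.69), -0.25 ± 0.30 (adjusted p = 0.757) and -0.23 ± 0.27 (adjusted p = 0.759). The called shares of these lists stand beside 7.06% of all probe sets, and those at an unadjusted p under 0.05 beside 18.0%.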

How the data were processed

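The deposited table holds intensities, 1 linear signal per probe set for each of the 8 arrays. Trimmed means of 500.8 to 500.9 (2% off each end) show that the authors had brought the arrays to a common scale before deposit. With which program is not given in the sources used here, and the table has no detection calls. Symbols came from the platform's annotation: 7018 probe sets have 1 symbol, 308 several and 1473 none. All 116 members had a gene ID found in the rat reference list (GRCr8) under the same symbol, and 99 had a promoter window.

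Signals were transformed as log2(signal + 7), where 7 is the rounded 10th percentile. The 59 control probe sets and 2611 others under the 30th percentile of mean signal (36.01) were left out, which kept 6129. limma 3.58.1 in R 4.3.3 (lmFit, eBayes with an intensity trend, 6 residual and 5.77 prior degrees of freedom) compared 4 induced with 4 uninduced samples, with Benjamini-Hochberg adjustment and a threshold of 0.05. The script was tested on simulated data. Figures were drawn with matplotlib 3.10.9 in Python 3.11.15. For arrays, their number limits the precision.

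Named members are the called ones, the 8 uncalled with the lowest p, the 6 with the highest mean signal, in each role with at least 3 tested members the 2 with the lowest p, and 25 fixed genes, of which 19 were on the array. From each neighbouring list the 3 genes with the lowest p are named. Slc7a3, Atp6v0a1 and the second Txnip probe set were named after their values were seen, and the role of family 52 was added after its gene was found on the array. The members, roles, lists and motifs were chosen with earlier results of these data known. Alternatives changed the added constant, the filter, the scaling, the variance model, the probe set rule, the block and the arrays left out.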

Additional observations from a re-analysis of the deposited data

Results flagged for a closer look

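In 84 groups of 4 samples checked among the named members, 4 had a sample far from the other 3, where chance alone gives about 1 in 20. Slc12a2 was at 694.8 in induced replicate 2, and the other induced samples ranged from 530.4 to 557.0. Slc1a1 was at 95.1 in induced replicate 4, with the others from 38.9 to 44.5, all under background. Slc22a5 was at 294.3 in uninduced replicate 1, with the others from 61.6 to 87.9. Slc25a30 was at 236.7 in induced replicate 2, with the others from 280.5 to 285.9. None of these 4 genes was called in the reported fit.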

How the results depend on the processing

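The count of called members was 6 and stayed between 4 and 7 over 19 alternatives, and the median of the members kept its sign in all of them. All alternatives reuse the same arrays. Within a group, the median log2 signal of the members varied between arrays with an SD of 0.15. That is larger than the size of the median difference (-0.09), so the kept sign does not make it firm. With 1 array left out at a time, the members called numbered 5 to 7, all called probe sets 313 to 408 (433 in the reported fit), and the median lay between -0.14 and -0.0034. The count of all called probe sets fell to 230 with median centring and to 279 without the intensity trend. It fell to 221 when replicate 2, which has another wording of the source label, was left out of both groups. The members called were then 4, 4 and 5. The cause was not tested, save that fewer samples entered the last. Array weights raised the count to 540, and the filter at the 50th percentile raised it to 472 of 4379, with 7 members called in each. With the mean of each gene's probe sets, 284 of 3623 genes were called (7.84%), 6 members among them. With 1 probe set per gene, 261 of 3623 were called (7.20%). Of the 34 uncalled named members with a test, 8 changed sign under at least 1 alternative and 2, Slc12a4 and Slc22a5, were called under at least 1. Same-numbered samples did not deviate together (correlations of -0.14, 0.06, -0.09 and 0.19 for replicates 1 to 4, with 2 of 8 samples correlating best with their own number). With the replicate number as a block, 5 members (without Slc25a10) and 367 probe sets were called. Signals near background limit what can be seen: 40 of the 90 tested members were under it on at least 1 array.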
